A study of Arabidopsis thaliana with 42 samples.

Results

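The genes described here are the 122 rows of the count table whose locus identifier marks them as encoded in the mitochondrial genome of Arabidopsis thaliana (prefix ATMG), of 27667 loci in all. The other loci were 27457 nuclear rows and 88 chloroplast rows. Values for the mitochondrial rows were present in 30 RNA-seq libraries of whole seedlings, 5 days old, made from RNA depleted of rRNA. The libraries formed 10 groups of 3: Col-0, the wild-type accession, and plants labelled rh6812, a name formed from RH6, RH8 and RH12, 3 RNA helicases of the DEAD-box family; the labels give their ecotype as Col-0. Both genotypes carried the label of cordycepin treatment at 0, 15, 30, 60 and 120 min. The sources used here give neither the alleles nor whether replicates were separate cultures. P-values therefore measure only how far these samples spread, and that spread may be technical. A further 12 poly(A)+ libraries of the series held no values for the mitochondrial rows.

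Plant mitochondria keep a small genome for core subunits of the respiratory chain, the ATP synthase, cytochrome c maturation and the mitochondrial ribosome, while most mitochondrial proteins are encoded in the nucleus. Mitochondrial transcripts are made by nuclear-encoded RNA polymerases of the phage type, and plant mitochondrial mRNA is not stably polyadenylated, so it is read out after rRNA depletion rather than poly(A) selection. Cordycepin is an adenosine analogue that ends RNA chains into which it is built and is used to follow the decay of cytosolic mRNA. RH6, RH8 and RH12 are cytosolic relatives of yeast Dhh1 and human DDX6, proteins that repress translation and promote removal of the mRNA cap. The comparisons asked how the mitochondrial transcripts differed between genotypes at 0 min and how they moved over the times. The 0 min libraries carry the cordycepin label too, and the labels do not say whether they were taken before or just after its addition.

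Totals ran from 11463206 to 22251739 counts per library, of which 139491 to 277071 were mitochondrial. Levels are given as CPM, counts scaled to a common library size. At 0 min the Col-0 and rh6812 means of RH8 were 34.7 ± 0.858 and 3.42 ± 0.342 CPM (SD, n = 3), and those of RH12 were 17.6 ± 2.57 and 9.66 ± 0.588. RH6 went against the label, at 35.3 ± 1.91 CPM in Col-0 against 378 ± 40.8 in the libraries labelled rh6812, and the genotype is therefore called by its label throughout. Of the seedling markers at 0 min, the leaf gene RBCS1A stood at 6971 CPM in Col-0 and 8121 in rh6812, and RCA at 1829 and 1931. The root gene PHT1;1 stood at 32.7 and 26.1 CPM, while the root gene NRT2.1 was low, at 0.576 and 1.65. The leaf gene LHCA4 stood at 2305 and 662 CPM, the root gene PRP3 at 2.65 and 3.37, and the pollen gene AT59 at 0.0816 and 0. The seed storage gene CRA1, like AT59 a marker set beforehand as absent in seedlings, ranged from 0.402 to 34.3 CPM over the 30 libraries. It was therefore not absent.

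Products are named only where a note of the RefSeq annotation (TAIR10.1) says what a member encodes, which held for 24 of the 122 members. Of these, 17 fell into 5 groups. Complex I, which feeds electrons from NADH into the chain, was represented by NAD1A (ATMG01275), NAD2B (ATMG01320) and NAD3 (ATMG00990). COB (ATMG00220), the cytochrome b of complex III, and COX3 (ATMG00730), a core subunit of complex IV, formed the second group. The ATP synthase group held ATP1 (ATMG01190), the alpha subunit of its catalytic head, and ATP6-1 (ATMG00410), ATP8 (ATMG00480) and ATP9 (ATMG01080) of its membrane part. CCMC (ATMG00900), CCMFC (ATMG00180) and CCMFN2 (ATMG00960) act in attaching heme to cytochrome c. The ribosomal proteins were RPL2 (ATMG00560), RPL5 (ATMG00210), RPS4 (ATMG00290), RPS7 (ATMG01270) and RPS12 (ATMG00980). The other 7 described members included ATMG00280, with the catalytic domain of the large chain of rubisco, ATMG00370, a Ycf1 protein, ATMG01090, an ATP synthase 9 protein, and ATMG01280, a cytochrome c oxidase subunit II-like protein. For the other 98 no note described a product, and they are given by identifier or count. The notes used belong to other loci that name a member as their best protein match. A missing note therefore does not mean an unknown product, and each group holds only members with such a note.

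Mitochondrial counts were concentrated in few rows. ATMG00280 held 25.1% of them over the 30 libraries, ATMG01360 13.97%, ATP9 8.97%, ATP1 7.75%, ATMG00160 4.34%, COX3 2.88% and COB 2.65%, and 10 rows together held 72.3%. Gene lengths were not used, so this order is one of counts and not of transcript number. A mean of at least 100 counts per library was reached by 59 members. The test across genes kept 113 of the 122 members; the highest mean count among the 9 left out was 5.47 and the lowest among those kept was 5.6.

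The mitochondrial share of all counts was higher in rh6812 than in Col-0 at 0 min and grew over the time course in both genotypes. In the Col-0 libraries at 0 min the share was 0.964%, 1.03% and 1.03% (mean 1.01 ± 0.0405, SD), and in rh6812 it was 1.11%, 1.12% and 1.11% (mean 1.12 ± 0.00729). The groups did not overlap, and the difference of 0.105 percentage points gave p = 0.1 in a two-sided exact permutation test, the smallest value that 3 against 3 libraries allow. By 120 min the share had a mean of 1.20% ± 0.0608 in Col-0 and 1.23% ± 0.0393 in rh6812. These means were 0.191 and 0.118 percentage points above those at 0 min (exact permutation p = 0.1 for each, again the smallest possible), without overlap between the first and last times in either genotype. Over all 5 times the mean share was 1.16% in rh6812 and 1.09% in Col-0 (permutation of genotype within time, 100000 resamples, two-sided, p = 0.00011). This permutation took all libraries of a genotype as independent, also those that share a replicate number across the times. If such libraries are linked, the p-value is too small. The 95% binomial intervals of single libraries reached 0.00416 to 0.00635 points to either side; such intervals cover counting error only. In whole seedlings, fewer mitochondria or fewer cells of a type and less RNA per cell cannot be told apart.

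The genotype difference in the share depended on the chloroplast rows, which held more counts than all others together in Col-0. The chloroplast share at 0 min was 53.0% in Col-0 and 44.7% in rh6812, and at 120 min it was 58.6% and 47.6%. Among the counts outside the chloroplast rows, the mitochondrial share at 0 min was 2.15% ± 0.0196 in Col-0 and 2.02% ± 0.0583 in rh6812, so the order was the opposite (difference −0.133 points, exact permutation p = 0.1). Over all times that difference was −0.319 points (permutation p = 1e-05, the smallest that 100000 resamples can give). That p-value, too, takes libraries of the same replicate number as independent. The growth over time was present outside the chloroplast rows too, to 2.90% ± 0.144 in Col-0 and 2.35% ± 0.0507 in rh6812 at 120 min. These shares include ATMG00280, which held 27.9% of mitochondrial counts in Col-0 and 22.7% in rh6812 at 0 min. Counts of that row followed those of the chloroplast gene for the rubisco large chain. The shares outside chloroplast rows were not computed without ATMG00280, so how far the opposite order rests on it was not tested.

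**Figure D1:**
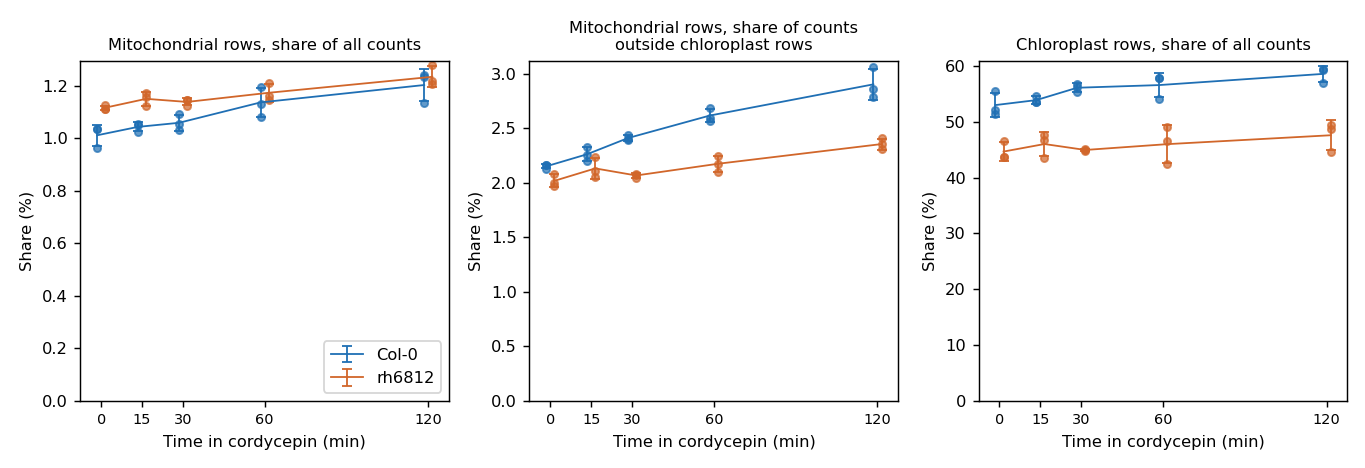
Mitochondrial share of all counts, mitochondrial share of the counts outside chloroplast rows, and chloroplast share (percent, vertical axes) against minutes of cordycepin (horizontal axes) in Col-0 and rh6812; points are libraries and bars the mean ± SD of 3. The first panel has rh6812 above Col-0 at 0 min (1.12% against 1.01%), and the second has Col-0 above rh6812 (2.15% against 2.02%).

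Per gene, the 3 cytochrome c maturation genes named above, RPS7, ATP9 and COX3 rose in rh6812 at 0 min. ATP1, ATP8, NAD1A and the rubisco-like row ATMG00280 fell in rh6812 at that time. Values per gene are CPM scaled by the trimmed mean of M values (TMM), so each change is relative to the other transcripts of the library. By edgeR's quasi-likelihood test with Benjamini-Hochberg adjustment over 21486 genes (threshold 0.05), 11 members were higher and 28 lower in rh6812 at 0 min. The members called were 34.5% of the 113 tested, against a background of 48.4% of all genes, of which 24.5% were higher and 23.8% lower. The median log2 change of the members was −0.20, against −0.02 over all genes. Scaling by library size alone moved the median of all genes by 0.22 upwards, to 0.20, and gave 16 members higher and 10 lower with a members' median of 0.02. The direction of the split therefore depended on the scaling, while the members' median lay below that of all genes under both.

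CCMFC, which the heme-attachment machinery needs, had 61.0, 60.4 and 61.1 CPM in the Col-0 libraries at 0 min; those of rh6812 had 87.7, 94.2 and 101 CPM. The groups were well apart, with a log2 change of 0.63 ± 0.08 (SE; edgeR's quasi-likelihood test, adjusted p = 3.0e-07). CCMC, at a far lower count, had 5.41, 6.21 and 6.22 CPM in Col-0 and 7.05, 9.90 and 9.0 in rh6812 (log2 change 0.53 ± 0.14, adjusted p = 0.0031). CCMFN2 had 6.34, 5.74 and 7.79 CPM against 9.32, 10.7 and 11.7 (0.67 ± 0.17, adjusted p = 0.0020). All 3 members with a note for this role were thus called higher without overlap between genotypes. Such separation at 0 min was common, at 42.5% of the members tested and 54.1% of all genes. Each of the 3 was also called with library size alone, with the mitochondrial total as library size and with its nuclear copies added in.

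Among the 5 ribosomal protein genes named above only RPS7 was called at 0 min. It had 5.88, 5.64 and 5.69 CPM in Col-0 and 7.58, 9.13 and 9.60 in rh6812 (log2 change 0.61 ± 0.16, adjusted p = 0.0022, edgeR). RPL2 had a log2 change of 0.18 (adjusted p = 0.10), RPS12 of 0.03, RPS4 of −0.06 and RPL5 of −0.21, none past the threshold. RPL2 was called with library size alone (0.40, adjusted p = 0.0066), by DESeq2 (adjusted p = 0.043) and with a replicate block (adjusted p = 0.038).

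The ATP synthase genes moved in different directions at 0 min. ATP9, which encodes the ring subunit of the membrane rotor, had 774, 619.7 and 738 CPM in Col-0 and 929, 926 and 1111 in rh6812 (log2 change 0.48 ± 0.13, adjusted p = 0.0035, edgeR). ATP1, in the catalytic head, had 754, 877 and 905 CPM in Col-0 and 711, 602 and 619.8 in rh6812 (−0.39 ± 0.12, adjusted p = 0.0090). ATP8 had 198, 171 and 179.8 CPM against 132, 137 and 138 (−0.43 ± 0.10, adjusted p = 7.9e-04). None of these 3 genes had overlapping groups, which held for 54.1% of all genes, and ATP6-1 had a change of 0.03. The lower levels of ATP1 and ATP8 were not called with library size alone (adjusted p = 0.35 and 0.084), and ATP1 was also not called with the mitochondrial total as library size (−0.31, 0.0503), without Col-0 replicate 3 (0.064) or without rh6812 replicate 3 (0.052).

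Among the members named in the electron transport groups, the called changes at 0 min were smaller than those in the groups above. COX3 had 253, 257 and 273 CPM in Col-0 and 305, 298 and 321 in rh6812 (log2 change 0.24 ± 0.08, adjusted p = 0.016, edgeR); the call was lost without Col-0 replicate 1 (0.055) or 2 (0.054). NAD1A had 30.4, 30.0 and 32.2 CPM against 23.5, 24.7 and 25.6 (−0.33 ± 0.08, adjusted p = 0.0021), which was not called with library size alone (−0.11, 0.43). COB, NAD2B and NAD3 had log2 changes of −0.06, −0.06 and 0.03 and were not called. NAD3 was lowest in replicate 1 of each genotype at 0 min, with 12.2, 16.3 and 16.6 CPM in Col-0 and 13.1, 16.6 and 16.6 in rh6812.

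The rows outside these groups included both large and small ones. ATMG00280 had 3359, 2556 and 2559 CPM in Col-0 and 2181, 2093 and 2220.15 in rh6812 (log2 change −0.38 ± 0.14, adjusted p = 0.022, edgeR), with Col-0 replicate 1 standing above the rest. Without that library the adjusted p was 0.18, without rh6812 replicate 2 it was 0.069 and without rh6812 replicate 3 it was 0.059. With library size alone ATMG00280 was not called either (−0.15, adjusted p = 0.18). ATMG00370, called a Ycf1 protein in its note, had 44.1, 41.7 and 38.1 CPM against 27.2, 24.2 and 24.9 (−0.70 ± 0.11, adjusted p = 1.2e-05). Of the members without a described product and averaging 3 or more on the log2 CPM scale, ATMG00513 (−0.83) and ATMG01220 (−0.68) had the largest decreases and ATMG00040 (0.41) and ATMG01360 (0.28) the largest increases. The call of ATMG01360 was lost without Col-0 replicate 2 (adjusted p = 0.082) or rh6812 replicate 3 (0.062).

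**Figure D2:**
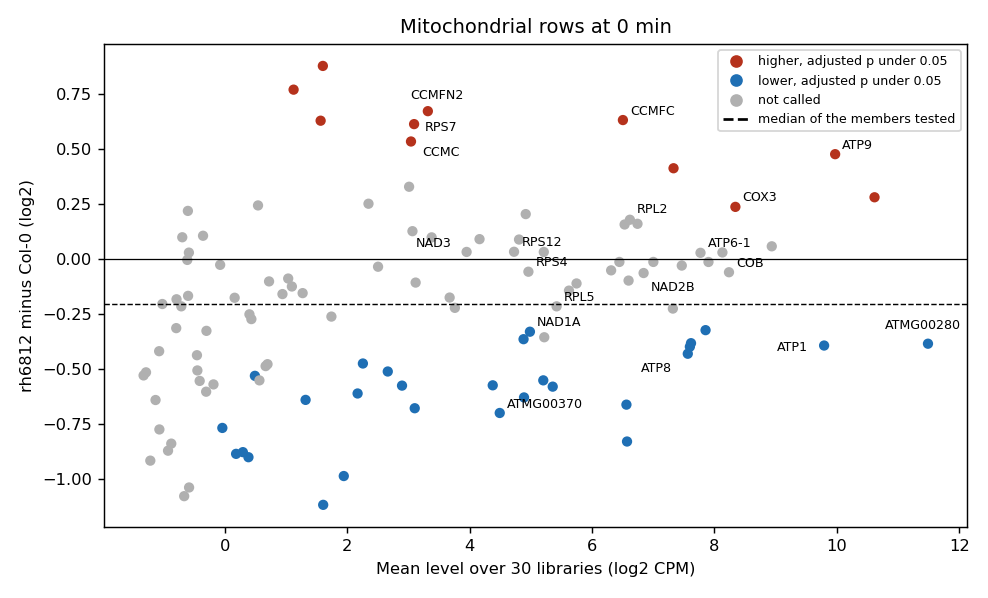
Log2 change at 0 min, rh6812 against Col-0 (vertical axis), against mean log2 CPM (horizontal axis) for the 113 members tested; coloured points were called by edgeR at an adjusted p under 0.05 and the dashed line is the members' median of −0.20. The called members lie on both sides of 0, 11 above and 28 below.

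Most well-counted mitochondrial transcripts rose relative to the rest of the library over the 120 min of cordycepin, more of them in Col-0 than in rh6812. In Col-0, 61 members were higher and 8 lower at 120 min than at 0 min (edgeR, adjusted p under 0.05), which is 61.1% of those tested against a background of 47.4% of all genes, 21.6% higher and 25.7% lower. Their median log2 change was 0.51, against −0.03 over all genes. In rh6812, 29 were higher and 7 lower, 31.9% against a background of 19.0%, with 8.72% of all genes higher and 10.3% lower. The members' median there was 0.26, against 0.00 over all genes. Of the members called higher, 28 were shared, which is 28 of 61 in Col-0 and 28 of 29 in rh6812. Among the 28 members averaging 6 or more on the log2 CPM scale, 27 were called higher in Col-0 and 20 in rh6812, and none was called lower. Over all genes, neither the calls at that level nor the calls shared by both courses were counted. The direction of the split changed with scaling. With the mitochondrial total as library size, which sets each member against the others, 1 member was higher and 21 lower in Col-0. In rh6812, 0 were higher and 16 lower on that scale. With library size alone, which moved the median of all genes by −0.36 in Col-0 and by −0.20 in rh6812, 19 members were higher and 15 lower in Col-0, and 2 higher and 10 lower in rh6812.

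All 17 members of the 5 groups had a positive change in both courses; 15 were called in Col-0 and 9 in rh6812. With library size alone 16 of the 17 were positive in each course, of which 7 were called in Col-0 and 0 in rh6812 (edgeR; 1 in rh6812 at an unadjusted p under 0.05), where DESeq2 with its own size factors called 12. With the mitochondrial total as library size 9 of the 17 were positive in each course and 0 were called (0 at an unadjusted p under 0.05).

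COB had 259, 252 and 276 CPM at 0 min and 428, 435 and 423 at 120 min in Col-0, a log2 change of 0.71 ± 0.09. In rh6812 it had 238, 249.7 and 267 CPM, then 326, 356 and 331, a log2 change of 0.43 (adjusted p = 9.0e-04, edgeR). The first and last times did not overlap in either genotype, which held for 54.1% of all genes in Col-0 and 34.9% in rh6812. ATP1 reached 1509, 1390.4 and 1467 CPM in Col-0 at 120 min, a rise of 0.78 ± 0.12 on the log2 scale. In rh6812 it reached 804, 732 and 816 CPM, a change of 0.28 that was not called (adjusted p = 0.0997, edgeR).

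ATP9 reached 1181, 1021 and 1133 CPM in Col-0 (0.65 ± 0.13) and 1294, 1489 and 1201 in rh6812 (0.43, adjusted p = 0.021). COX3 reached 399, 375 and 409.7 CPM in Col-0 and 364, 416 and 381 in rh6812, changes of 0.60 and 0.33, both called. The rise of CCMFC was 0.63 in Col-0 and 0.40 in rh6812, and that of NAD1A 0.59 and 0.40. RPL5, RPS4 and RPL2 rose by 0.77, 0.74 and 0.68 in Col-0. Only NAD3 (0.11) and CCMFN2 (0.37, adjusted p = 0.085) of the 17 were not called in Col-0. The call of RPS7 in Col-0 was lost without replicate 2 of 0 min or replicates 2 or 3 of 120 min (adjusted p up to 0.115). In rh6812 the calls of ATP9 and ATP6-1 were each lost without replicate 1 or 2 of 0 min or replicate 2 of 120 min, and that of ATP6-1 also without replicate 3 of 120 min (adjusted p up to 0.108 and 0.191).

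**Figure D3:**
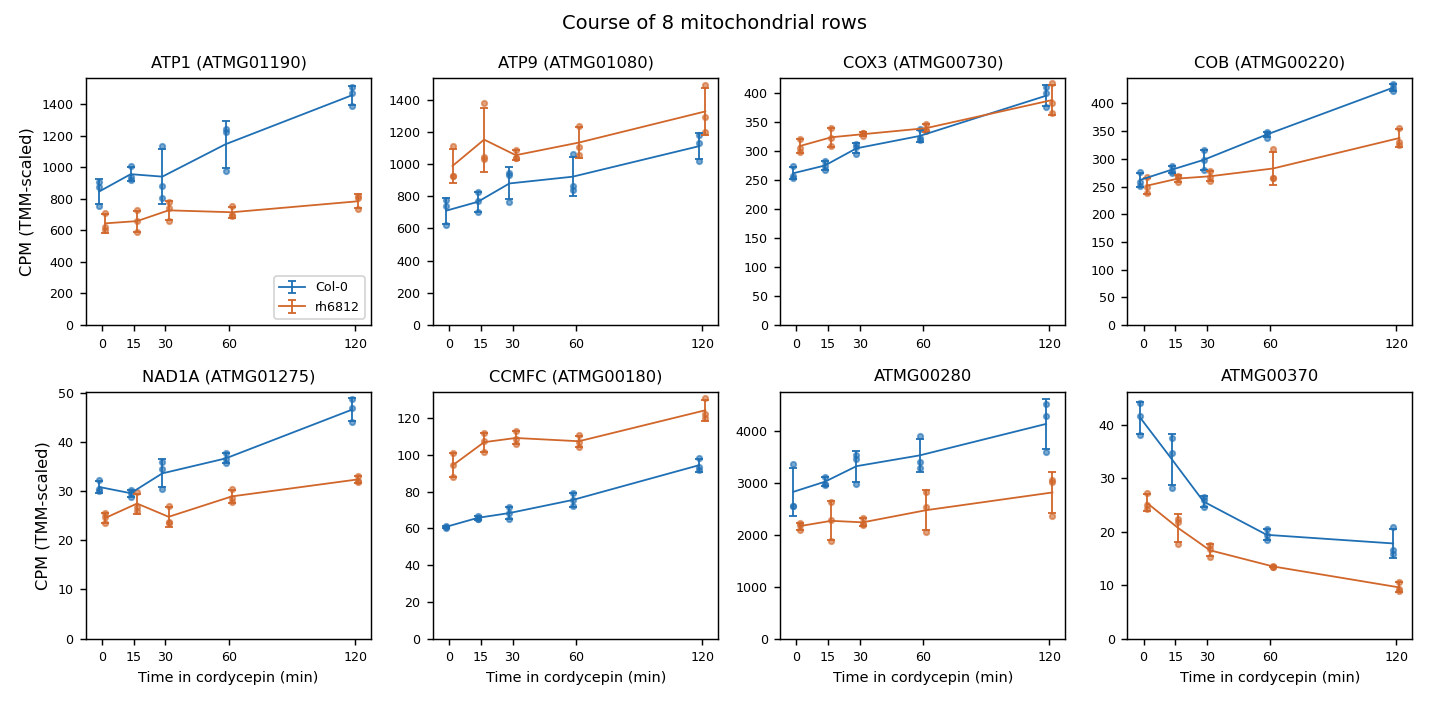
CPM (TMM-scaled, vertical axes) against minutes of cordycepin (horizontal axes) for ATP1, ATP9, COX3, COB, NAD1A, CCMFC, ATMG00280 and ATMG00370 in Col-0 and rh6812; points are libraries and bars the mean ± SD of 3. ATMG00370 is lower at 120 min than at 0 min in both genotypes, and the mean of each of the other 7 is higher.

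A few members moved the other way. ATMG00370 went from 44.1, 41.7 and 38.1 CPM at 0 min to 20.9, 16.6 and 15.9 at 120 min in Col-0 (log2 change −1.21 ± 0.12, adjusted p = 3.3e-09, edgeR). In rh6812 it went from 27.2, 24.2 and 24.9 to 10.6, 9.21 and 8.87 (−1.41 ± 0.12, adjusted p = 5.3e-09). Its decline was called in both genotypes under each scaling tried. ATMG01090, the second ATP synthase 9 row, fell in Col-0 from 37.2, 39.6 and 39.0 CPM to 25.5, 28.8 and 28.6 (−0.48 ± 0.12, adjusted p = 0.0014). The members called lower in both courses were 5, of 8 in Col-0 and 7 in rh6812. They were ATMG00370 and 4 whose product no note describes.

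At 120 min the members were mostly lower in rh6812, with 7 higher and 55 lower (edgeR). The called members were 54.9% of those tested against a background of 56.5% of all genes, of which 30.3% were higher and 26.2% lower; the members' median was −0.48 and that of all genes 0.04. With library size alone the split was 16 higher and 20 lower. ATP1 had the change of largest size among the 17, −0.89 ± 0.12 (adjusted p = 7.9e-07), followed by RPL5 (−0.71) and ATP8 (−0.68). NAD1A (−0.52), RPS4 (−0.45), NAD2B (−0.36), COB (−0.34) and ATP6-1 (−0.27) were also called lower. CCMFN2 (0.71), RPS7 (0.57), CCMC (0.42) and CCMFC (0.40) were called higher, as at 0 min. ATP9 (0.26, adjusted p = 0.092) and COX3 (−0.03) were not called.

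The slopes over the 5 times gave the test of the difference between the courses. A straight line of log2 abundance against hours was called rising in Col-0 for 63 members and falling for 5 (edgeR), against a background of 50.6% of all genes called, 22.8% rising and 27.8% falling. In rh6812 it was called rising for 33 and falling for 9, against 21.7% of all genes, 10.1% rising and 11.6% falling. The direction of the rh6812 split turned with library size alone (3 rising, 12 falling) and with times up to 60 min only (0 rising, 4 falling). In Col-0 these settings gave 33 rising and 12 falling, and 40 rising and 3 falling. With the mitochondrial total as library size, 1 slope was called rising and 19 falling in Col-0, and 2 rising and 18 falling in rh6812. With TMM scaling the members' median slope was 0.27 log2 units per hour in Col-0 and 0.12 in rh6812. The slope was larger in Col-0 for 94 of the 113. The difference was called for 18 members, all with the smaller slope in rh6812, against a background of 13.9% of all genes, 9.69% with the larger slope in rh6812 and 4.22% with the smaller. The median difference of the members was −0.15 and that of all genes 0.00.

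ATP1 had the slope difference of largest size among the named genes, −0.25 ± 0.07 log2 units per hour (adjusted p = 0.014, edgeR), from 0.39 in Col-0 to 0.13 in rh6812. RPL2 differed by −0.19 ± 0.05 (adjusted p = 0.014), ATMG01280 by −0.19 ± 0.05 (0.013) and NAD2B by −0.17 ± 0.05 (0.024). COB (−0.15, adjusted p = 0.026), CCMFC (−0.15, 0.027), COX3 (−0.14, 0.030), ATP6-1 (−0.16, 0.045) and ATMG01360 (−0.18, 0.022) were the other named members called. The count changed with the times used and with the scaling: 4 members were called with times of 15 to 120 min only, 0 with times up to 60 min only (12 at an unadjusted p under 0.05) and 0 with library size alone (2 at an unadjusted p under 0.05), while DESeq2 with its own size factors called 25. Without rh6812 replicate 1 of 120 min the count was 8, and CCMFC, COB, ATP6-1, RPL2, COX3 and NAD2B were no longer called. Without rh6812 replicate 3 of 120 min, CCMFC (adjusted p = 0.053), COX3 (0.0502) and ATMG01360 (0.056) missed the threshold.

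**Figure D4:**
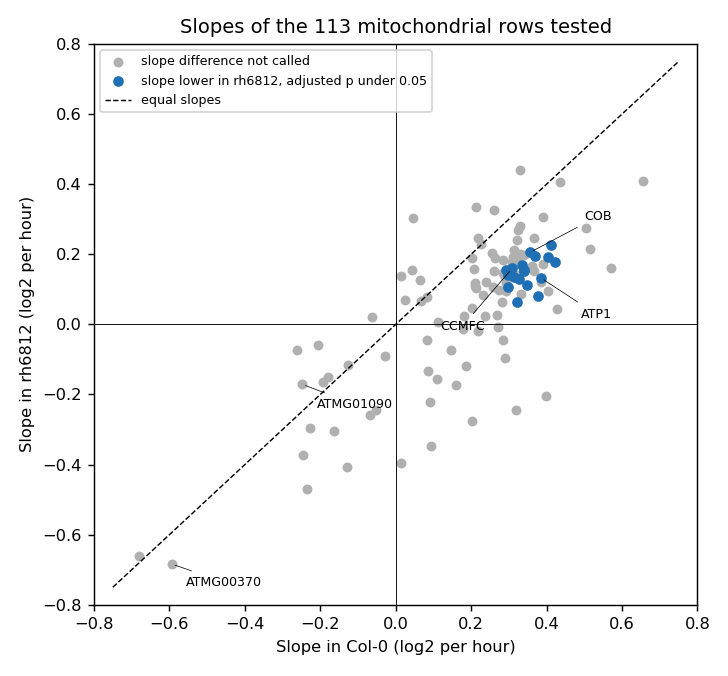
Slope in rh6812 (vertical axis) against slope in Col-0 (horizontal axis), both in log2 units per hour, for the 113 members tested; marked points were called for a slope difference by edgeR. For 94 of the 113 members the slope in Col-0 was the larger.

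Nuclear genes for mitochondrial proteins were counted in the same libraries. Of 30 nuclear subunits of the respiratory chain, 15 were higher and 4 lower in rh6812 at 0 min (edgeR; median log2 change 0.20), where 24.5% of all genes were higher and 23.8% lower. In the Col-0 course 27 of the 30 rose and none fell (median 0.51), against 21.6% and 25.7% of all genes. In the rh6812 course 8 rose and none fell (median 0.21), against 8.72% and 10.3%. ATP3 (AT2G33040), the gamma subunit of the ATP synthase, rose by 0.61 in Col-0 (adjusted p = 2.7e-07). The slope difference was called lower in rh6812 for 15 of the 30 and higher for none, against 4.22% and 9.69% of all genes. Of 21 nuclear genes for mitochondrial transcription, RNA processing and decay, 13 were lower and none higher at 0 min (median −0.46), against the same 23.8% and 24.5%. Among them, EMB2730 (AT5G02250), annotated as a mitochondrial RNase of type II, changed by −1.18 (adjusted p = 4.9e-07) and MGP3 (AT1G68990), the annotation's symbol for a phage-type RNA polymerase gene, by −0.82.

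Of 10 nuclear genes known to respond to mitochondrial dysfunction, 9 were tested, and 6 were higher and none lower in rh6812 at 0 min (edgeR; median log2 change 0.70), where 24.5% of all genes were higher and 23.8% lower. BCS1 (AT3G50930), an outer-membrane ATPase, rose by 1.63 (adjusted p = 9.4e-07), and AOX1A, the alternative oxidase that bypasses complexes III and IV, by 1.45 (adjusted p = 1.8e-05). NAC017, a membrane-bound transcription factor of this response, rose by 0.52 (adjusted p = 1.8e-05). Of the 88 chloroplast rows, 70 were lower in rh6812 at 0 min and none higher (median −0.78), against 23.8% and 24.5% of all genes; the members' median had the same sign, and the difference between the 2 genomes was not tested. In the Col-0 course 37 chloroplast rows rose and 3 fell (median 0.37), against 21.6% and 25.7%.

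Many members have near-identical copies in the nucleus, because a large insertion of mitochondrial DNA lies on chromosome 2, and the sources used here do not say how reads with several matches were counted. Annotation notes tied 46 nuclear rows to 45 members. These rows held 0.950% to 1.32% of the counts of the rRNA-depleted libraries, about as much as the members. AT2G07732, tied to ATMG00280, had by far the highest mean count of them, 122255 per library, with AT2G07698 next at 20528.9. In the poly(A)+ libraries of total RNA the 46 rows held 0.00364% ± 0.000278 (SD, n = 3) in Col-0 and 0.00520% in rh6812. ATP9 and AT2G07671 had a median count ratio of 0.992 over the 30 libraries (range 0.912 to 1.04), and ATP1 and AT2G07698 one of 0.812 (0.788 to 0.832). Of the 42 pairs with both rows tested, 35 had the same sign of change at 0 min and 39 the same sign of slope in Col-0. Across these pairs Pearson's r was 0.88 for the change at 0 min, as a description, since the rows share libraries and may share reads. The values of such members are therefore uncertain as to which genome copy the reads came from.

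Some rows stood apart from their copies and others moved with them. CCMFC changed by 0.63 at 0 min while its nuclear row AT2G07815 changed by −0.07, on mean counts of 1746 and 504. With nuclear rows added to their members, ATMG00280 was no longer called at 0 min (−0.28, adjusted p = 0.074) and ATMG01090 was no longer called in the Col-0 course (−0.06, adjusted p = 0.67). ATMG00370 and its nuclear row AT2G07739 had a count ratio of 0.867 (0.617 to 1.19). AT2G07739 had the highest poly(A)+ level of the 46 nuclear rows, 11.8 ± 5.00 CPM in Col-0 total RNA, with the next at 4.17. Its slope was −0.62 log2 units per hour in Col-0 and −0.59 in rh6812, the same direction as that of ATMG00370. ATMG00280 followed the chloroplast gene for the rubisco large chain: their count ratio was 0.0217 over the 30 libraries, with a range of 0.0204 to 0.0243.

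**Figure D5:**
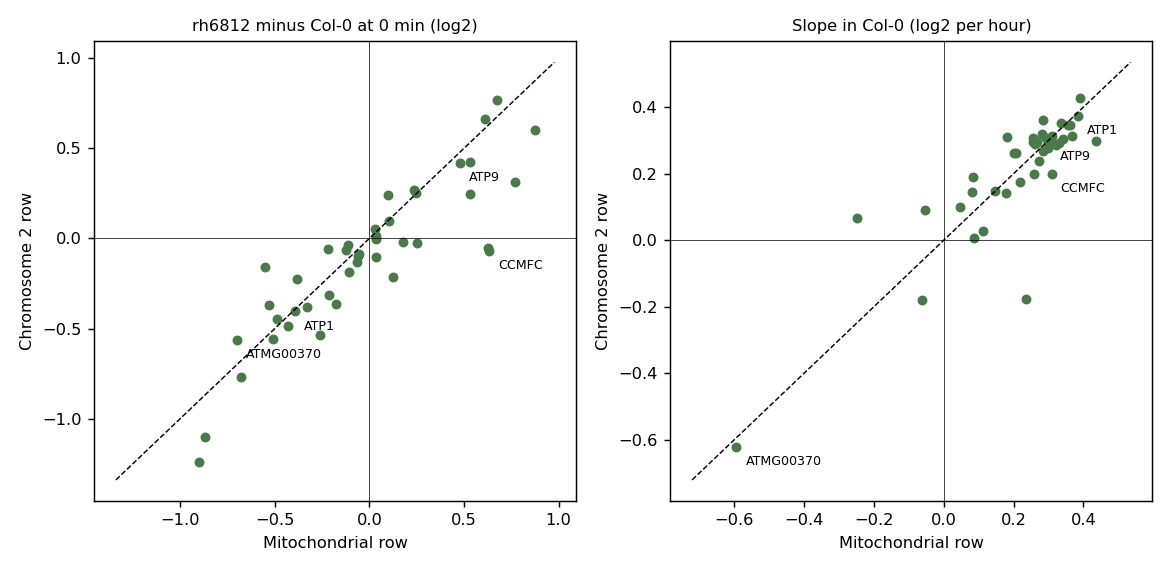
Value of the nuclear row (vertical axes) against value of the mitochondrial member (horizontal axes) for the 42 pairs tested; the first panel has the log2 change at 0 min, rh6812 against Col-0, and the second the slope in Col-0 in log2 units per hour. At 0 min 35 of the 42 pairs have the same sign, and for the slope 39.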

How the data were processed

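Per the labels, RNA of whole seedlings was depleted of rRNA with a Ribo-Zero Plant kit; Bowtie2 2.2.5, TopHat2 2.0.14 and the TAIR10 genome are named in the submitters' processing notes, without their roles. The counting program, its strand setting and its treatment of reads with several matches are not stated there. The authors deposited raw whole-number counts per locus, which were used as deposited. Each library was scaled by TMM, genes were kept with edgeR's filterByExpr (minimum count 10, minimum total 15), and edgeR 4.0.16 (R 4.3.3) quasi-likelihood fits with robust dispersions were made over all 30 libraries: 1 mean for each of the 10 groups, and, for slopes, a line in hours within each genotype. P-values were adjusted by Benjamini-Hochberg over the 21486 genes tested, with a threshold of 0.05. Shares were compared by permutation over libraries. The fits were tested on simulated counts: of 200 genes changed by 1 log2 unit at 0 min, 75.5% were recovered, among 21090 genes. Of 200 genes with a slope difference of 0.5 log2 units per hour, 60.5% were recovered. That simulated difference is larger than that of any named member. Genes not changed made up 5.59% of the calls at 0 min and 2.4% of those for the slope difference.

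The members, gene lists and tests were chosen with earlier results of these data known. Genes were named by rule: in each role group up to 4 with the smallest p and the one of highest level; of other members up to 4 of the largest called changes each way among those averaging 3 or more in log2 CPM, plus the 5 highest levels; ATMG00280, ATMG00370, ATMG01090 and ATMG01280 were named for their described products or, like AT2G07739, after their values were seen. Names come from annotation notes of TAIR10.1, whose coordinates and sequences were not used. Alternatives were other scalings, DESeq2 1.42.0, no filter, a replicate block, fewer times, and each library left out; sums with nuclear copies and shares without ATMG00280 were added after seeing the data. All 42 columns were mapped to samples by their names. Libraries of 1 group differed by more than sampling noise.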

Additional observations from a re-analysis of the deposited data

Results flagged for a closer look

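The slopes over the 5 times differed between the genotypes in edgeR's interaction of genotype and time, at an adjusted p under 0.05 over all genes, for 9 of the members named above. The differences, rh6812 minus Col-0 in log2 units per hour, were −0.25 for ATP1, −0.19 for RPL2, −0.19 for ATMG01280, −0.18 for ATMG01360, −0.17 for NAD2B, −0.16 for ATP6-1, −0.15 for COB, −0.15 for CCMFC and −0.14 for COX3. None of the 9 was called with library size alone or with times up to 60 min only. With times of 15 to 120 min only, 8 of the 9 were not called, ATP1 at an adjusted p of 0.060, RPL2 at 0.069, COB at 0.148 and COX3 at 0.170 among them, and CCMFC was. With nuclear copies added in, ATP6-1 (−0.149, adjusted p = 0.065) and ATMG01280 (−0.146, 0.060) were not called and the other 7 were. Leaving out 1 library ended the call of ATP6-1 in 16 of the 30 cases. Of the 88 chloroplast rows, 2 were called for a smaller slope in rh6812, with a median difference of −0.13 and 79 of 88 negative; the members' median was −0.15, with 94 of 113 negative.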

How the results depend on the processing

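DESeq2's test or size factors, scaling on nuclear genes, no filter and, added after seeing the data, sums with nuclear copies kept each of the 7 counts of called members within 1.5 times. The scaling chosen decided the counts more than these did. With library size alone they were 26 at 0 min (16 higher, 10 lower), 36 at 120 min, 34 in the Col-0 course, 12 in the rh6812 course, 45 and 15 (3 rising, 12 falling) for the slopes in Col-0 and rh6812, and 0 for the slope difference. With the mitochondrial total as library size, which sets each member against the others, they were 35, 40, 22, 16, 20, 20 and 2 in that order. The Col-0 course then had 1 higher and 21 lower, and the 2 slope differences called had the larger slope in rh6812. On that scale the course in Col-0 turned to −0.0249 for ATP6-1, −0.0148 for COX3, −0.143 for CCMC, −0.13 for RPS12, −0.158 for RPS7, −0.0168 for NAD1A, −0.0592 for ATMG00280 and −0.0205 for ATMG01280. In rh6812 it turned to −0.0697 for ATP6-1, −0.0059 for RPL2, −0.0252 for COX3, −0.0179 for NAD2B and −0.0328 for ATMG01360. Times up to 60 min gave 43 called slopes in Col-0 (40 rising) and 4 in rh6812 (all falling) and 0 slope differences, and times of 15 to 120 min gave 4 slope differences; the cause was not tested. With the counts outside the chloroplast rows as denominator, the share difference turned to −0.133 points at 0 min and −0.319 over all times. Without ATMG00280 the difference in the share of all counts at 0 min was 0.133 points. The share outside chloroplast rows was not computed without that row.

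Leaving out each library in turn gave 32 to 36 calls at 0 min, 55 to 62 at 120 min, 58 to 65 in the Col-0 course, 28 to 34 in the rh6812 course, 63 to 73 and 36 to 46 slopes in Col-0 and rh6812, and 8 to 27 slope differences (8 without rh6812 replicate 1 of 120 min). The share differences ranged from 0.0818 to 0.117 at 0 min, 0.0649 to 0.0778 over all times, 0.168 to 0.226 in the Col-0 course and 0.0952 to 0.132 in the rh6812 course.

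With the replicate number as a block the counts were 42 at 0 min, 70 at 120 min, 71 and 48 in the Col-0 and rh6812 courses, 70 and 52 for the slopes, and 22 for the slope difference. Deviations of same-numbered libraries correlated at 0.188 on average and others at −0.0939, and 30 of 30 libraries correlated best with their own number, a hint from the data. The same-numbered pairs at 0 min were at 0.0602, 0.282 and 0.184, all above the average of the others. The main fits held no term for the replicate number, so such a link was not allowed for in them. Members of few counts limit detection, since only 59 of the 122 averaged 100 counts.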
